A study of Homo sapiens with 5 samples.

Results

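NEAT1 and MALAT1 are a pair of long noncoding RNAs of the cell nucleus whose genes lie next to each other on human chromosome 11. They were chosen by symbol, as 2 of the 25702 genes of the count table, and followed through every library of an RNA immunoprecipitation sequencing (RIP-seq) study of PSF. PSF, encoded by SFPQ, is an RNA-binding protein of the DBHS family. The cells were LTAD, a human prostate cancer line kept in phenol-red free medium with 10% charcoal-stripped serum, so that all groups were deprived of androgen. They received either the DMSO vehicle or the compound No.10-3, of which only this code name is given, at 5 µM. The 5 libraries were 1 PSF-RIP with vehicle, 2 PSF-RIP with No.10-3 (replicates 1 and 2) and 2 input RNA libraries. By the labels, 1 input came from vehicle cells and 1 from No.10-3 cells, but the names of the input columns do not tell which is which. They are called input A and input B here and serve together as 1 reference. No control immunoprecipitation with another antibody is among these 5 samples, and the labels do not say whether the libraries came from separate cultures, so p-values measure only the spread between these samples, which may be technical.

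NEAT1 is the RNA scaffold of paraspeckles, nuclear bodies assembled around it by PSF and its relatives NONO and PSPC1. The gene makes a short and a long isoform that share their 5′ end, and only the long isoform builds the paraspeckle. MALAT1 is not needed for paraspeckles. It is among the most abundant nuclear RNAs of many cell types, gathers at nuclear speckles rich in splicing factors, and is cut at its 3′ end to release a small tRNA-like RNA. Both RNAs are largely unspliced and lack a poly(A) tail on their long forms.

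The table counted NEAT1 over 3735 bases, while the whole gene spans 22743 bases in RefSeq (GRCh38.p14). The counted length is thus close to that of the short isoform, whose sequence is also the 5′ part of the long one, and the isoforms cannot be told apart in this value. MALAT1 was counted over 8708 bases, close to its whole RefSeq gene of 8779 bases. RefSeq gives MALAT1 alternative starts 1307 bases apart on the plus strand, and the sequence around each is shown because it tells where the RNA called MALAT1 begins. Lower-case letters are the 50 bases before the start and capitals the first 50 transcribed bases (RefSeq, GRCh38.p14, chr11:65497688-65497787 for the upstream start and chr11:65498995-65499094 for the downstream start).
MALAT1 upstream start: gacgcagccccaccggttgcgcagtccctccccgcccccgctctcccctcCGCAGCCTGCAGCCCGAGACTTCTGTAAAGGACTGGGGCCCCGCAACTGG
MALAT1 downstream start: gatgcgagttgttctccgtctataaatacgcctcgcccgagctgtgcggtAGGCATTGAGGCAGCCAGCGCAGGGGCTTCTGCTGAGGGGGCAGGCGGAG

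Libraries held between 1519362 and 4010376 counts over genes, and inputs differed from PSF-RIP in what those counts were. Small structured RNAs (7SK, 7SL, RMRP, RPPH1, snRNAs, snoRNAs and the like) and mitochondrially encoded genes took 82.45% and 83.2% of counts in inputs A and B, against 13.1% to 23.4% in the PSF-RIP libraries. All 10 luminal prostate markers were detected, summing to 760 to 841 CPM (counts brought to equal library totals) in input and 2901 to 3878 in PSF-RIP. The basal markers KRT5 and TP63, the blood markers PTPRC, CD3E and HBB, the neuroendocrine markers CHGA, CHGB and INSM1, the stromal markers DCN and LUM and the endothelial marker CDH5 were at 0 in every library. Of the other marker lists, 2 of 4 basal, 1 of 5 neuroendocrine, 3 of 5 stromal, 1 of 5 blood and 2 of 3 endothelial genes were detected, the stromal genes summing to 1.95 to 3.74 CPM in input and 51.1 to 75.2 in PSF-RIP. Their part in the results was not tested.

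Both RNAs were abundant everywhere, and both took a larger share of the counts in PSF-RIP than in input. NEAT1 took 0.0616% of counts in input A and 0.0485% in input B. Vehicle PSF-RIP gave it 0.0985% (95% Wilson interval 0.0945 to 0.103%). With No.10-3 the share was 0.0977% (0.0928 to 0.103%) in replicate 1 and 0.196% (0.191 to 0.200%) in replicate 2. Every PSF-RIP library thus stood above both inputs, and replicate 2 stood clear of the others. MALAT1 took 0.330% of counts in input A and 0.223% in input B. Vehicle PSF-RIP gave it 0.902% (interval 0.890 to 0.915%). With No.10-3 the share was 0.662% (0.649 to 0.674%) in replicate 1 and 2.26% (2.24 to 2.27%) in replicate 2, where MALAT1 had the second-highest count of all genes. The order was the same as for NEAT1 in that inputs were lowest and replicate 2 highest. Wilson intervals cover counting error only. A share above both inputs in all 3 PSF-RIP libraries was common, being found for 88.7% of the 13321 genes tested, beside the large part of input counts held by small structured and mitochondrial RNAs.

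Scaled so that most genes stand level between libraries (edgeR's TMM factors), NEAT1 was lower in PSF-RIP than in input, a direction that turned with library totals, and MALAT1 showed no difference past its error. TMM-scaled NEAT1 stood at 1589 CPM in input A and 1327 in input B. In vehicle PSF-RIP it reached 512 CPM, and in the No.10-3 libraries 548 (replicate 1) and 950 (replicate 2). No PSF-RIP library reached the lower input, as was the case for 25.1% of all genes tested. The mean was 1458 ± 185 CPM in input (SD, n = 2) and 670 ± 243 CPM in PSF-RIP (SD, n = 3). With the vehicle and No.10-3 conditions weighted equally, the log2 change of PSF-RIP over input was -1.24 (SE 0.42, 95% interval -2.09 to -0.38, adjusted p = 0.0283 by edgeR's quasi-likelihood test), a level 2.35-fold lower. Genes called lower made up 13.6% of all genes tested, and 13.9% of all genes had a lower log2 change than NEAT1. The call was lost without input A, without input B, without the vehicle PSF-RIP library (edgeR adjusted p = 0.155) and with the 3 PSF-RIP libraries as 1 group (0.0572). When an input was left out, the No.10-3 pair alone gave the spread. When replicate 1 or replicate 2 was left out, the input pair alone gave it, and the log2 change was -1.06 or -1.47. Over all libraries left out, the log2 change of NEAT1 kept its sign at -0.97 to -1.47. The change over input compares precipitated RNA with input RNA, and is not a change of the RNA's level in the cells. In these bulk lysates, the number of cells holding an RNA and its amount per cell cannot be told apart.

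TMM-scaled MALAT1 stood at 8503 CPM in input A and 6106 in input B. In vehicle PSF-RIP it reached 4686 CPM, and in the No.10-3 libraries 3713 (replicate 1) and 10960 (replicate 2). The groups overlapped: vehicle and replicate 1 lay below both inputs and replicate 2 above them. The log2 change over input was -0.32 (SE 0.49, 95% interval -1.31 to 0.68, adjusted p = 0.667 by edgeR), at which 38.3% of all genes lay lower. Without replicate 2 it was -0.82, each PSF-RIP condition then being 1 library, and without the vehicle library it was -0.0037.

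**Figure D1:**
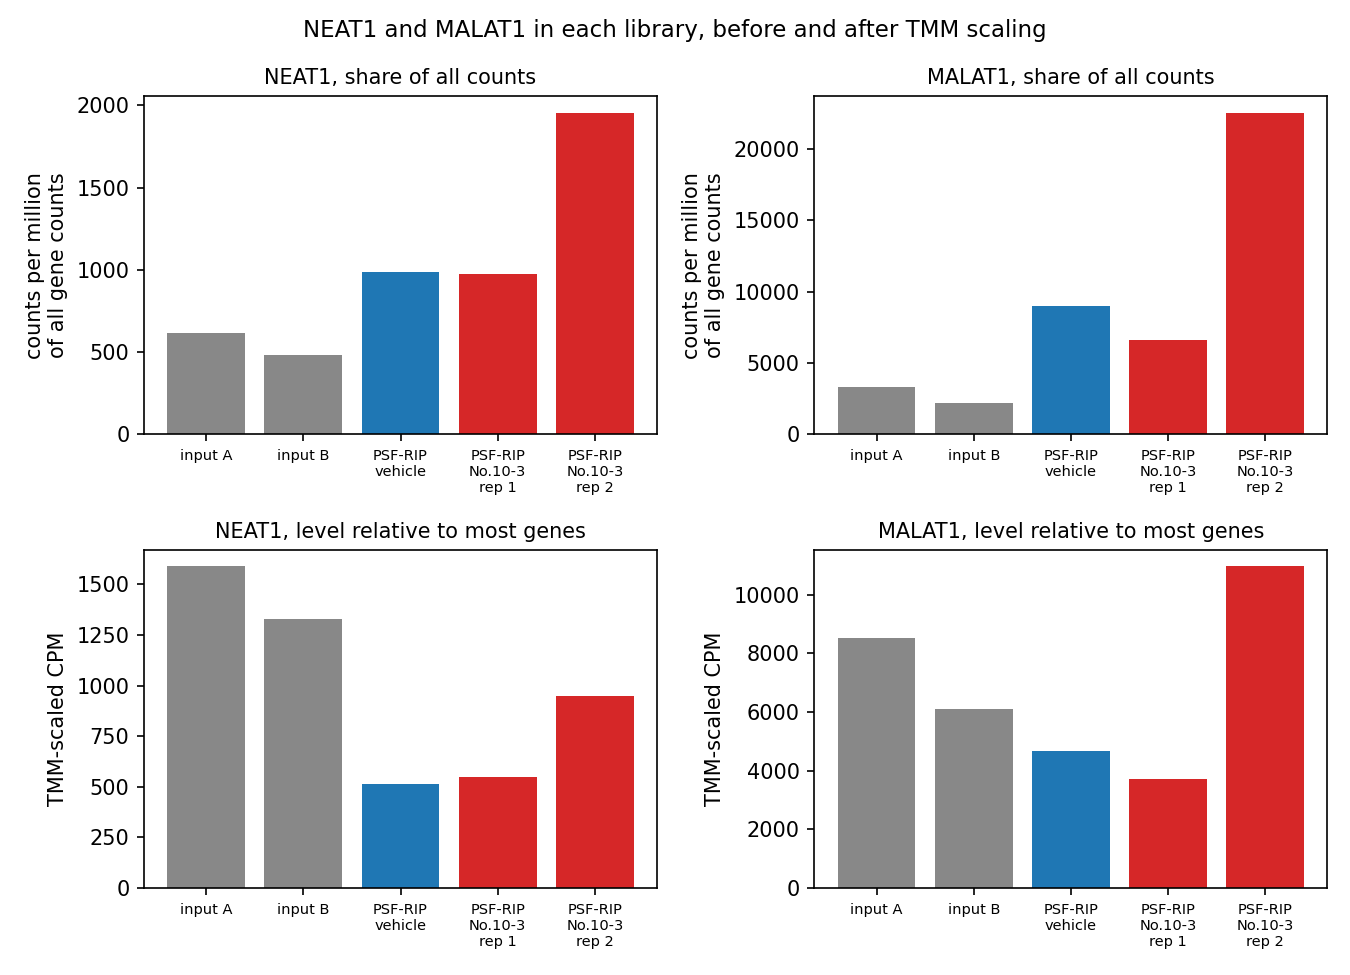
CPM of NEAT1 and MALAT1 in each of the 5 libraries, as a share of all gene counts (upper panels) and after TMM scaling (lower panels); each bar is 1 library, grey for input, blue for PSF-RIP with vehicle and red for PSF-RIP with No.10-3. As a share of all counts every PSF-RIP bar is above both inputs, while after TMM scaling the PSF-RIP bars of NEAT1, at 512 to 950 CPM, are all below the inputs and those of MALAT1 lie on both sides.

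The direction over input therefore turned on the reference. With library totals in place of TMM factors, NEAT1 was higher in PSF-RIP, at 1.13 on the log2 scale (edgeR adjusted p = 0.0113, SE 0.39), as was MALAT1, at 2.05 (SE 0.49, adjusted p = 7.2e-04). On that scale the median gene stood at 2.38, and 84.2% of all genes tested were called higher. Relative to the median gene, NEAT1 stood at -1.26 with library totals and at -1.28 with TMM, and MALAT1 at -0.33 and -0.36. Both estimates thus lay below the median gene, that of MALAT1 by less than its SE. A change of scaling moves all genes by nearly the same amount, so the second scaling is no separate test of this place. After small structured and mitochondrial genes were left out of the totals, a setting chosen after seeing the data, the log2 change was -1.11 for NEAT1 (adjusted p = 0.0191 by edgeR) and -0.19 for MALAT1 (adjusted p = 0.772).

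**Figure D2:**
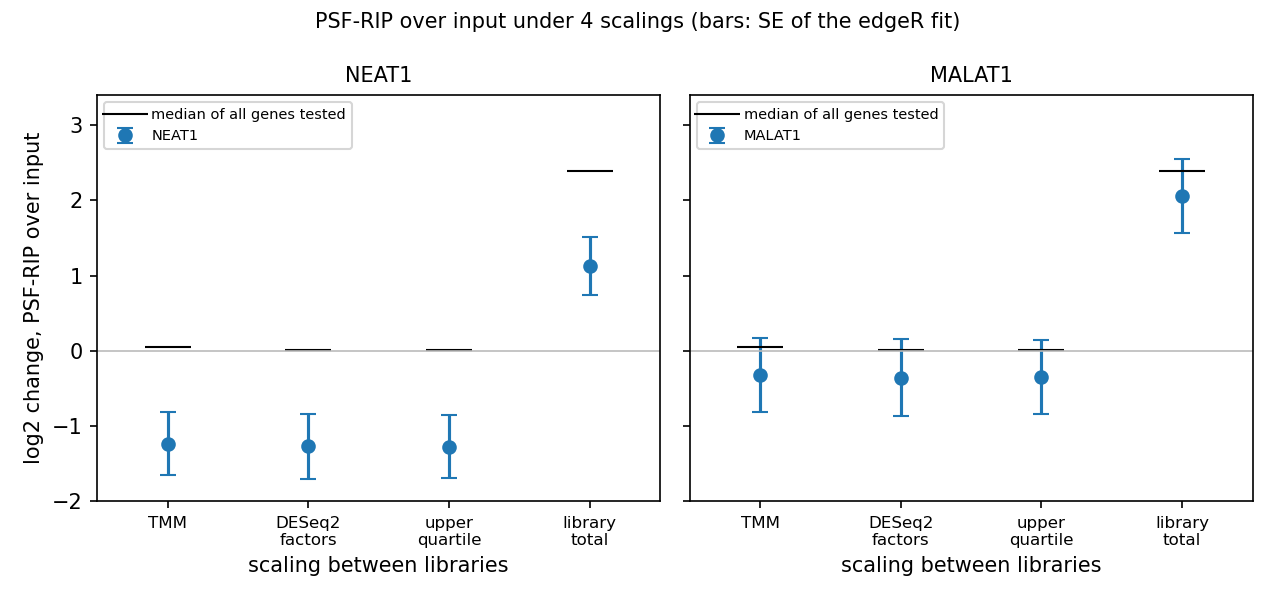
Log2 change of PSF-RIP over input for NEAT1 (left) and MALAT1 (right) under 4 scalings between libraries; points are the edgeR estimates, bars their SE, and black dashes the median of the 13321 genes tested. NEAT1 moves from -1.24 with TMM to 1.13 with library totals, and the median gene moves with it.

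Taken by condition, NEAT1 was at a log2 change over input of -1.51 with vehicle (SE 0.60, 95% interval -2.71 to -0.31, adjusted p = 0.0651 by edgeR) and -0.96 with No.10-3 (SE 0.46, -1.88 to -0.04, adjusted p = 0.154). Neither passed the threshold, in fits that called 20.5% and 11.5% of genes; both signs turn with library totals, to 0.84 and 1.41. MALAT1 was at -0.64 with vehicle (SE 0.66, adjusted p = 0.513) and 0.0065 with No.10-3 (SE 0.53, adjusted p = 0.995). The latter value is a mean of libraries on opposite sides, at -0.99 without replicate 2 and 0.58 without replicate 1. These comparisons share the input libraries.

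MALAT1 stood further above NEAT1 in PSF-RIP than in input, a comparison within each library that no scaling between libraries can alter. There were 5.35 MALAT1 counts per NEAT1 count in input A (exact 95% interval 5.13 to 5.59) and 4.6 in input B (4.35 to 4.87). Vehicle PSF-RIP had a ratio of 9.15 (interval 8.75 to 9.57). The No.10-3 libraries had 6.77 (6.41 to 7.16) for replicate 1 and 11.5 (11.3 to 11.8) for replicate 2. No PSF-RIP library overlapped an input, and the intervals, which cover counting error only, did not touch. With TMM factors, 13.9% of all genes tested had a lower log2 change over input than NEAT1, and 38.3% a lower one than MALAT1. NEAT1 stood at -1.28 relative to the median gene and MALAT1 at -0.36. The median gene thus rose against NEAT1 by more than MALAT1 did, and the higher ratio is not particular to MALAT1. How many other genes would show such a rise against NEAT1 was not counted. On the log2 scale the mean ratio of MALAT1 to NEAT1 was 3.16 ± 0.39 in PSF-RIP (SD, n = 3). In input it was 2.31 ± 0.15 (SD, n = 2), a difference of 0.85 or 1.80-fold. A two-sided exact permutation test over libraries gave p = 0.2, and with 10 splits this test cannot give less than 0.1, so it cannot reach the threshold. Leaving out replicate 2, the difference was 0.67. Within PSF-RIP, replicates 1 and 2 lay on either side of vehicle.

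**Figure D3:**
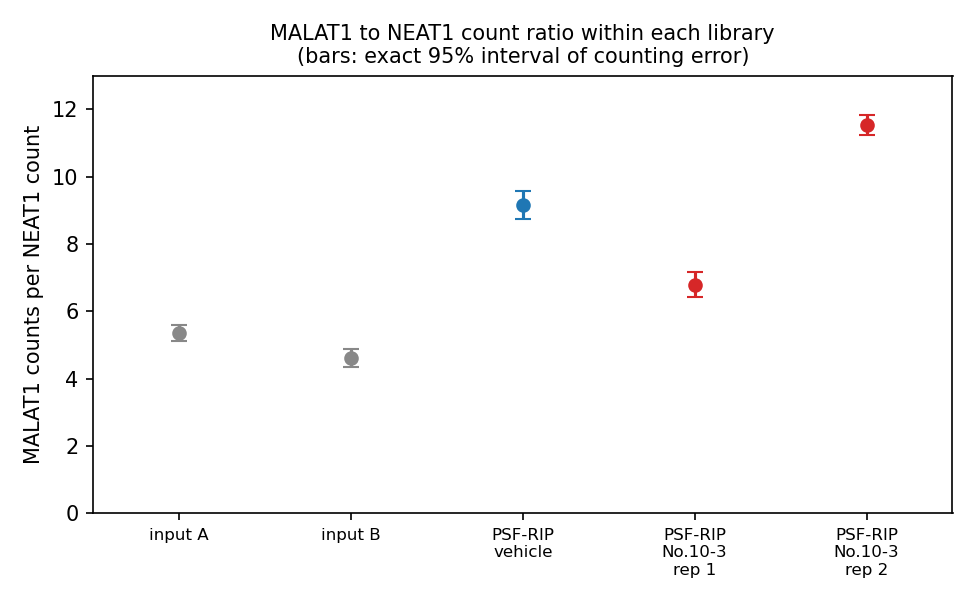
MALAT1 counts per NEAT1 count in each library; bars are exact 95% intervals of counting error. The inputs lie at 4.6 and 5.35 and the PSF-RIP libraries at 6.77, 9.15 and 11.5.

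Per length, as the deposited length-normalised FPKM values, MALAT1 also exceeded NEAT1 in every library. NEAT1 stood at 165 FPKM in input A, 130 in input B, 264 in vehicle PSF-RIP and 262 and 524 in replicates 1 and 2. MALAT1 stood at 379, 256, 1036, 760 and 2591 FPKM in the same order. The per-length ratio of MALAT1 to NEAT1 was 2.29 and 1.97 in inputs A and B and 3.93, 2.90 and 4.95 in PSF-RIP. Among the 20133 genes of at least 1000 bases, MALAT1 ranked between 6 and 14 by FPKM and was the highest long noncoding RNA in all 5 libraries. NEAT1 ranked between 20 and 55 among these genes, and held place 2 or 3 among the long noncoding RNAs. Ranks hold within a library, so they do not rest on scaling.

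The table also held a window on the long NEAT1 isoform. MIR612, a microRNA gene of 100 bases, lies inside NEAT1 in RefSeq, 21660 bases from its first base and thus beyond the short isoform. It was chosen after its values were seen. MIR612 had 14 counts in input A, 4 in input B, 11 in vehicle PSF-RIP, and 5 and 25 in replicates 1 and 2. Reads of the microRNA and of the long isoform that runs through it cannot be told apart in these counts. Per length it stood at 21.2% of NEAT1 in input A (exact 95% interval 11.6 to 35.6%) and 9.99% in input B (2.72 to 25.6%). Vehicle PSF-RIP had 19.1% (9.53 to 34.3%), and the No.10-3 libraries 12.6% (4.08 to 29.4%) and 14.2% (9.17 to 20.9%). These intervals, which cover counting error only, overlapped throughout. On raw counts, not per length, the mean log2 ratio of MIR612 to NEAT1 was -7.96 ± 0.31 in PSF-RIP (SD, n = 3). In input it was -8.01 ± 0.77 (SD, n = 2). Over input with TMM factors MIR612 stood at -1.23 on the log2 scale (edgeR adjusted p = 0.140, SE 0.62), beside -1.24 for NEAT1. This direction also turned with library totals, where the mean of MIR612 was 2.39 ± 1.55 CPM in input (SD, n = 2) and 5.25 ± 2.07 CPM in PSF-RIP (SD, n = 3).

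With No.10-3, neither RNA differed from vehicle in PSF-RIP past the error of the fit. The log2 estimate for NEAT1 was 0.55 (95% interval -0.60 to 1.70, SE 0.57, edgeR adjusted p = 0.904) and that for MALAT1 0.65 (-0.70 to 1.99, SE 0.66, adjusted p = 0.904). In this comparison 0% of the 13321 genes were called, with 847 (6.36%) at an unadjusted p under 0.05 by edgeR, and DESeq2 and limma-voom called 0 genes as well. The intervals leave room for a 2-fold change of either RNA. The treated pair differed more from each other than either RNA's mean did from vehicle. TMM-scaled NEAT1 was 1.07-fold of vehicle in replicate 1 and 1.86-fold in replicate 2, and MALAT1 was 0.792-fold and 2.34-fold. Replicate 2 had the highest level among PSF-RIP libraries at 38% of all genes tested. Without replicate 1, MALAT1 had a log2 change of 1.21 and NEAT1 one of 0.88. Without replicate 2 the values were -0.33 for MALAT1 and 0.10 for NEAT1. Each of these sets 1 library against 1, and no replicate of either condition then gives a spread.

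Gene length moved with the difference between the treated replicates. Replicate 2 minus replicate 1, on the log2 scale, had a median of -0.51 for the 1171 tested genes under 1000 bases and 0.37 for the 707 genes of at least 8000 bases. MALAT1, at 1.56, lay above 96.5% of the genes in that longest class. NEAT1, at 0.79, lay above 85.9% of the 5318 genes of 2000 to 4000 bases, whose median was 0.0043. The 2 inputs showed a smaller trend of the same kind, with medians of -0.26 and 0.21 for the shortest and longest classes (input A minus input B), and NEAT1 and MALAT1 at 0.26 and 0.48. The log2 change over input was at a median of 0.17 for genes of 2000 to 4000 bases, where NEAT1 lay above only 11.8%. The part of length in these results was not tested.

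**Figure D4:**
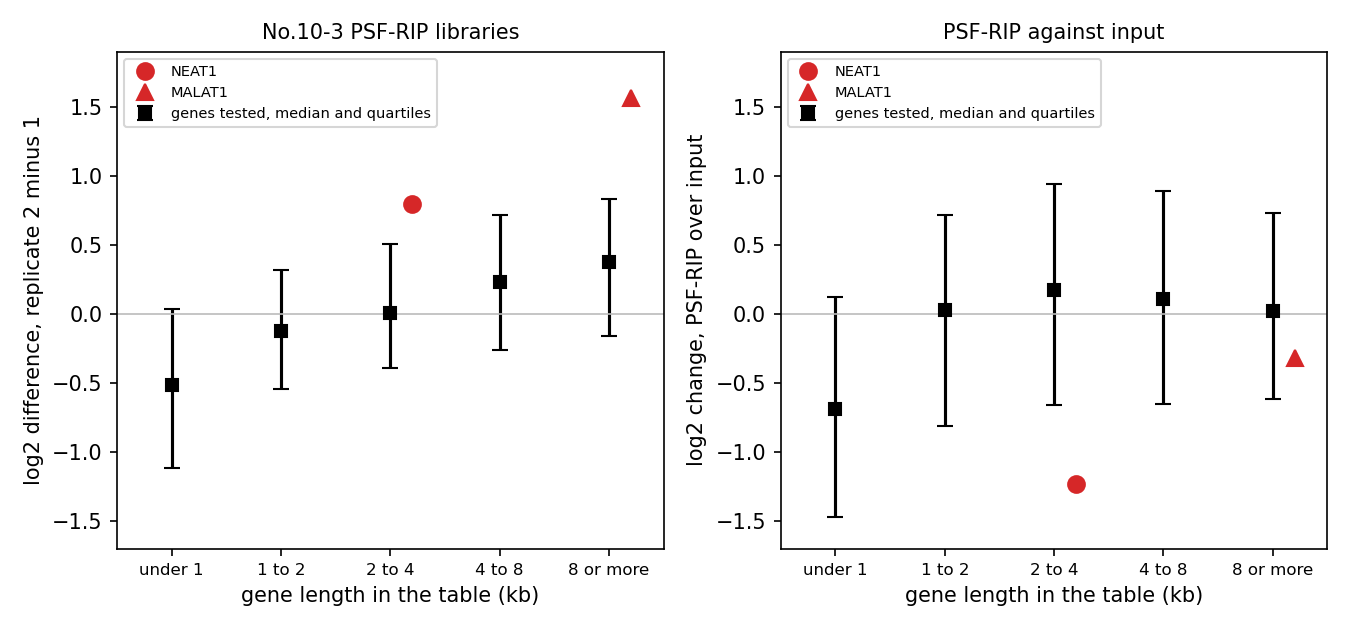
Log2 difference between the No.10-3 PSF-RIP replicates (left) and log2 change of PSF-RIP over input (right) by gene length in the table; squares and bars are the median and quartiles of the genes tested, and red marks are NEAT1 (circle) and MALAT1 (triangle) in their own length class. On the left the class medians climb from -0.51 to 0.37 and both RNAs lie above the upper quartile of their class.

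The genes named here for a profile over the 5 libraries most like that of NEAT1 or MALAT1 were protein-coding. The share of protein-coding genes among the candidates was not counted. They were picked by that likeness, so the match of their values is no separate result. With a cutoff of 10 CPM, 0 of the 5 closest to NEAT1 and 3 of the 5 closest to MALAT1 were shared. Likeness was the root mean square difference of log2 CPM, each gene centred on its own mean, among 3157 other genes averaging 50 CPM or more. Among the 5 closest to NEAT1 were UBXN2B (0.09), ARCN1, a coatomer subunit (0.10), TFRC, the transferrin receptor (0.10), and PJA2, a ubiquitin ligase (0.11). UBXN2B stood at 92.0 and 86.1 TMM-scaled CPM in inputs A and B, 26.9 in vehicle PSF-RIP, and 32.1 and 53.2 in replicates 1 and 2. Closest to MALAT1 was CDC42BPA, a kinase downstream of CDC42 (0.06), then SREK1, a splicing regulator (0.12), CEP350, a centrosomal protein (0.12), and, also among the 5 closest, RB1CC1, of the autophagy initiation complex (0.14). CDC42BPA stood at 143 and 106 TMM-scaled CPM in the inputs, 71.9 in vehicle PSF-RIP, and 62.4 and 181 in replicates 1 and 2. MALAT1 was at place 568 in likeness to NEAT1 (0.49). All these genes were longer than the median of 3686 bases among genes of that abundance, at 4016 to 5295 bases for those like NEAT1 and 4488 to 13456 for those like MALAT1.

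Among other noncoding RNAs, NEAT1 lay below the median and the place of MALAT1 depended on the libraries used. The 547 tested genes annotated as long noncoding RNA had a median log2 change over input of -0.65 with TMM factors, against 0.05 for all genes, and 150 of them were lower than NEAT1 and 330 lower than MALAT1. With vehicle alone, MALAT1 stood at their median (-0.64 for both), with 269 of the 547 lower. With No.10-3 it stood at 0.0065 beside a median of -0.62, with 388 lower. Without replicate 2 the value of MALAT1 over input was the -0.82 given above, and its place among these genes was not counted there. From a list of other long noncoding RNAs, not all of them nuclear, 15 of 24 in the table were tested. Of these 0 were called higher, 3 lower and 12 not called, with a median of -0.73. That is 20% called, against 25.6% of all genes tested (13.6% lower). OIP5-AS1 was lower by edgeR (log2 change -1.85, adjusted p = 4.53e-04), as were DANCR (-1.76, adjusted p = 8.9e-04) and TERC, the RNA of telomerase (-1.38, adjusted p = 0.0166). With library totals the log2 changes of all 3 turned positive, 12 of the 15 were called higher, where 84.2% of all genes were, and the median was 1.61, against 2.38 for all genes. TERC was uneven in PSF-RIP, at 87.9 TMM-scaled CPM with vehicle and 54.3 and 10.1 with No.10-3.

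The protein-coding neighbours on chromosome 11 lay on the other side. Of 17 listed genes found, 16 were tested, and 6 were called higher in PSF-RIP than in input, 0 lower and 10 not called, where 12% of all genes tested were called higher. Their median log2 change was 1, and all 16 had a value above that of MALAT1, below which 38.3% of all genes tested lay. PCNX3 was at 1.99 (edgeR adjusted p = 5.33e-04, SE 0.41), MAP3K11, a kinase of the JNK pathway, at 1.64 (adjusted p = 0.00271) and LTBP3, a binding protein of latent TGF-beta, at 1.64 (adjusted p = 0.00292). With library totals all 16 were called higher, as were 84.2% of all genes, with a median of 3.34 beside 2.38 for all genes.

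The mRNAs of proteins reported in paraspeckles were called about as often as genes at large. Of 49 listed genes found, 47 were tested, with 7 called higher over input, 5 lower and 35 not called, that is 25.5% against 25.6% of all genes, and the median log2 change was 0.28. SMARCA4, a chromatin remodelling ATPase, was higher by edgeR (log2 change 1.83, adjusted p = 8.87e-04), as was AHDC1 (1.86, adjusted p = 0.00196), and ZNF24, a zinc finger protein, was lower (-1.63, adjusted p = 0.002), though its sign also turned with library totals. SFPQ, the mRNA of PSF itself, stood at 85.5 and 63.9 TMM-scaled CPM in the inputs, 169 in vehicle PSF-RIP, and 78.7 and 104 in replicates 1 and 2. Over input it stood at 0.73 on the log2 scale (edgeR adjusted p = 0.145, SE 0.37). Of the 30 mRNAs of nuclear speckle proteins, 6 were called higher, 0 lower and 24 not called, that is 20% against 25.6% of all genes (12% higher), with a median of 0.39 beside 0.05. Library totals gave 43 of 47 and 30 of 30 called higher in these 2 lists, with medians of 2.65 and 2.74, where 84.2% of all genes were called higher and the median gene stood at 2.38. CCNL2, a cyclin of speckles, was at 1.25 (adjusted p = 0.0162 by edgeR), ACIN1, of a complex bound to exon junctions, at 1.22 (adjusted p = 0.0189) and CLK3, a kinase of SR proteins, at 1.28 (adjusted p = 0.020). With No.10-3 against vehicle, 0 members of the 4 lists were called, and the list medians were -0.36, -0.22, -0.27 and -0.23 for paraspeckle, speckle, noncoding and neighbouring genes, and 0.04 for all genes. The values of NEAT1 and MALAT1, 0.55 and 0.65, were 0.10 and -0.33 without replicate 2.

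**Figure D5:**
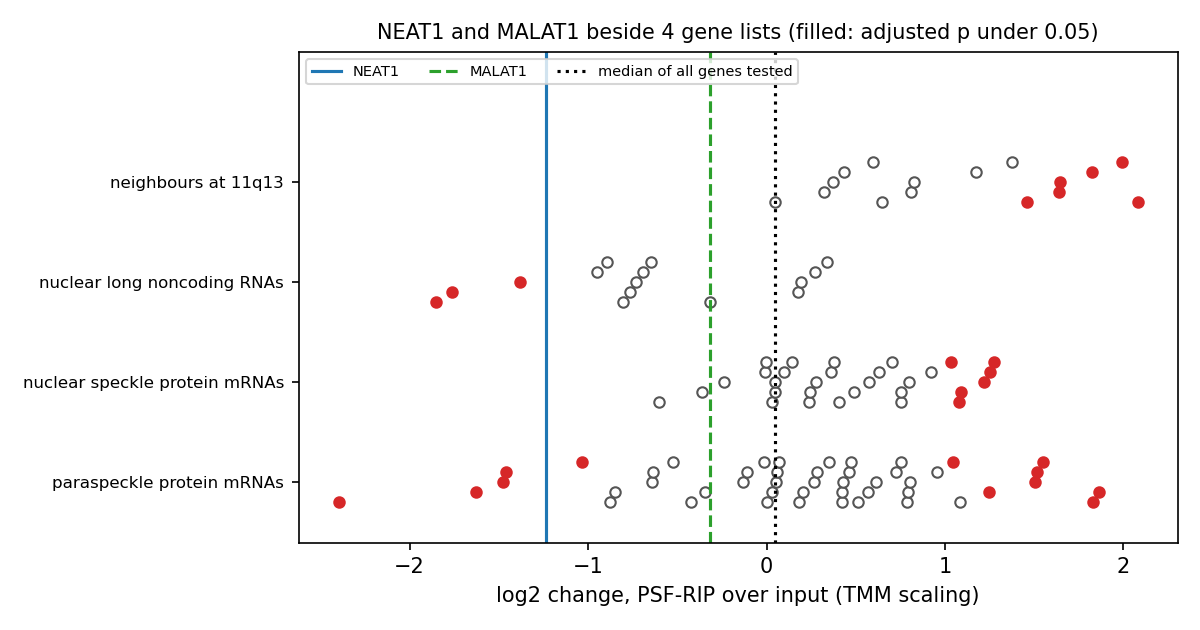
Log2 change of PSF-RIP over input with TMM scaling for each tested member of 4 gene lists; filled points passed an adjusted p of 0.05, vertical lines mark NEAT1, MALAT1 and the median of all genes tested, and the vertical offset of points within a list has no meaning. All 16 neighbours lie to the right of MALAT1, and 3 of 15 other noncoding RNAs lie to the left of NEAT1. Of all genes tested, 38.3% lie to the left of MALAT1 and 13.9% to the left of NEAT1.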

How the data were processed

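The authors deposited 1 table of whole-number read counts, gene lengths and FPKM per Entrez gene. The submitters' processing notes name hg19, Bowtie, Bowtie2 2.2.6 and TopHat2 2.1.0 without their roles. The counter, strand setting and handling of multi-mapping reads are not given in the sources used. MALAT1 has an antisense partner, and without a stated strand setting their reads cannot be told apart. The deposited FPKM values equal count over length and library total to a relative deviation of 5.9e-08. The No.10-3 columns lack the words PSF and RIP and were assigned by elimination. The 13321 genes averaging 1 CPM or more over the 5 libraries were tested in R 4.3.3 with edgeR 4.0.16 (TMM, glmQLFit, glmQLFTest, Benjamini-Hochberg, threshold 0.05) in 3 groups with 2 residual degrees of freedom. Vehicle PSF-RIP was taken to vary as the pairs do, and the spread of the input pair can hold a treatment effect. DESeq2 1.42.0 and limma 3.58.1 were alternatives. Biotypes came from RefSeq (GRCh38.p14), matched for 23696 genes. Named genes were NEAT1, MALAT1, SFPQ, the 3 members of each list with the smallest p over input, and the 5 genes most like each RNA, of which, as of the markers, some are not reported here. Members and lists were chosen with earlier results of these data known.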

Additional observations from a re-analysis of the deposited data

How the results depend on the processing

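With library totals, signs over input turned: NEAT1 stood at 1.13 over all PSF-RIP, 0.84 with vehicle and 1.41 with No.10-3, MALAT1 at 2.05 and 1.71, and MALAT1 with No.10-3 at 2.40 became called; genes called numbered 11274, 9770 and 11577, against 3413, 2730 and 1537 with TMM. MALAT1 with No.10-3 over input, at 0.0065, turned to -0.068 with DESeq2 size factors and with DESeq2, -0.046 with upper quartiles, -0.063 at a mean of at least 5 CPM, -0.19 with limma-voom and -0.00067 without small RNA and mitochondrial genes. NEAT1 with vehicle over input became called at -1.52 with DESeq2 (adjusted p = 0.0207), -1.50 with limma-voom (0.0301), -1.51 without small RNA and mitochondrial genes (0.0347) and -1.37 with their totals left out, added after seeing the data (0.0478). NEAT1 over input was -1.12 with 2 groups (adjusted p = 0.0572). DESeq2 called 2252, 1664 and 883 genes over input, and without a filter 9 genes were called with No.10-3 against vehicle. Leaving out 1 library at a time, genes called ranged from 623 to 5566 over input, 332 to 4944 with vehicle, 234 to 4074 with No.10-3 and 0 to 870 against vehicle. The same ranges were -1.47 to -0.97, -1.63 to -1.37, -1.42 to -0.63 and 0.10 to 0.88 for NEAT1. They were -0.82 to -0.0037, -0.86 to -0.38, -0.99 to 0.58 and -0.33 to 1.21 for MALAT1. The difference of PSF-RIP minus input in the log2 ratio of NEAT1 to MALAT1, at -0.85, ranged from -1.05 to -0.67 and kept its sign. Where a pair was left with 1 library, the spread came from the other pair alone, with 1 residual degree of freedom, and the lone libraries were assumed to vary like it. As medians over the 5 libraries, among genes of at least 1000 bases NEAT1 exceeded 99.88% of genes by FPKM (99.38% of all genes) and MALAT1 99.955% (99.68%). At a mean of at least 10 CPM, 0 of the 5 genes most like NEAT1 and 3 of the 5 most like MALAT1 were shared. Except where a library was left out, the cause of these changes was not tested. No paired analysis was possible because the labels name the inputs by treatment and not by number, and the input columns, of which 1 ends in 2, do not give the treatment. MIR612 had 4 to 25 counts, so its counting intervals are wide.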
